A study of Saccharomyces cerevisiae with 3 samples.

Results

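The genes HOM3, HOM2, HOM6, MET2, MET6, MET12, MET13, SAM1, SAM2 and SAH1 of baker's yeast encode enzymes of homoserine and methionine synthesis and of the S-adenosylmethionine (SAM) cycle. These 10 genes were taken by symbol from the 5539 genes that the array's annotation names, and all 10 were measured, each by 2 spots. Each of the 3 arrays carried, on 1 slide, RNA of a yap1 deletion mutant exposed to 0.2 mM As(III), arsenite, for 1 h, labelled with Cy3, and RNA of wild type exposed to the same agent, dose and time, labelled with Cy5. No array of cells without arsenite was analysed here, and the sources used here give no strain background, growth medium or number of mutant isolates. The arrays are labelled replicates 1 to 3, with no word on whether cultures were separate, so each p-value covers the spread between arrays alone, and that spread may be technical.

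Sulfur enters amino acids when sulfide joins O-acetylhomoserine, a compound built from aspartate through homoserine. The homocysteine formed in this way is methylated to methionine with a methyl group carried by folate, methionine is activated to SAM, and after SAM has given up its methyl group the remaining S-adenosylhomocysteine is split to return homocysteine. Homoserine is also the starting point of threonine, and homocysteine is a source of cysteine and glutathione, which binds arsenite. Yap1, the transcription factor whose gene is deleted in the mutant per the labels, activates genes of oxidative stress defence and metal detoxification. The arrays compare the transcripts of the mutant and wild type under arsenite.

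The values are deposited log ratios of the channels of an array, and the sources used here give neither the base of the logarithm nor the direction of the ratio. Each array's median over the 5539 genes, −2.11, −2.30 and −1.59 on replicates 1, 2 and 3, was subtracted, and genes are described as on the high or the low side of it. YAP1, the deleted gene, had spot values of −2.02 and −0.85 on replicate 1, −0.68 and 0.24 on replicate 2, and −1.29 and −0.20 on replicate 3. Averaged over the arrays, these spots had −1.33 and −0.27, both below the median. One of them lay above the median on replicate 2, so the direction was left unsettled. No statement is made on which strain held more transcript, and no fold change is given. All 3 arrays had the same dye orientation, so an effect of the dyes on a gene cannot be told apart from a difference between the strains.

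The 10 genes were spread over both sides of the array median. SAH1, MET13 and MET12, which act in the methyl cycle or supply its methyl group, lay on the high side, at means of 1.74, 1.33 and 0.86 log units. HOM2 and MET2, which act on the way from aspartate to O-acetylhomoserine, lay on the low side, at −1.66 and −0.98. The other 5 genes, HOM3, HOM6, MET6, SAM1 and SAM2, had means between −0.13 and 0.28 and changed sign between arrays. In limma's moderated test with Benjamini-Hochberg adjustment over all 5539 genes, 5 of the 10 passed an adjusted p of 0.05, where 28.5% of all genes passed. On the high side 3 of the 10 passed, against 16% of all genes, and on the low side 2 passed, against 12.5%. The same 5 genes were the ones with the same sign on all 3 arrays, which 58.9% of all genes had. The median of the 10 means was 0.20, and −0.02 over all genes.

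**Figure D1:**
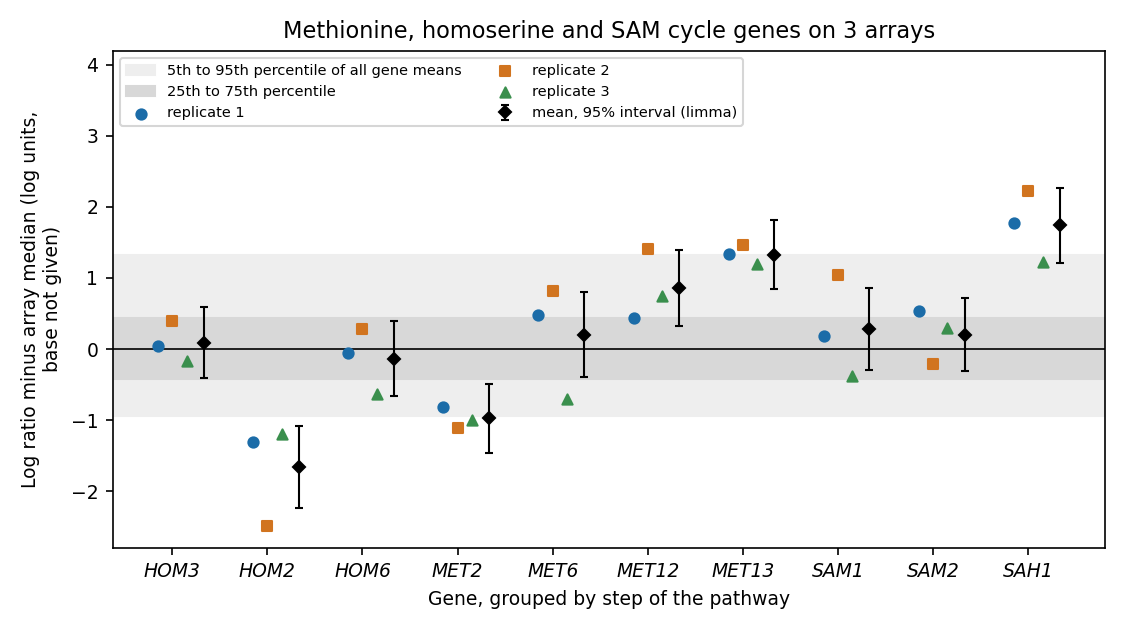
Log ratio minus the array median (vertical axis, log units of unknown base) of the 10 genes on replicates 1 to 3 (coloured points), with the mean and its 95% interval from limma (black); the grey bands hold the central part of all 5539 gene means. SAH1, MET13 and MET12 lie above 0 on every array and HOM2 and MET2 below 0 on every array, while the other 5 genes have arrays on both sides.

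Homoserine synthesis begins with HOM3, the aspartate kinase gene (YER052C), whose enzyme catalyses the first step from aspartate to threonine and methionine. HOM3 had 0.04, 0.39 and −0.17 on replicates 1, 2 and 3, with a mean of 0.09 ± 0.28 (SD, n = 3). The values straddled the median, and limma gave an adjusted p of 0.80 with a 95% interval of −0.41 to 0.59. On replicate 1 the gene's spots stood at −0.58 and 0.66, a gap of 1.25 against a median gap of 0.37 over 5510 genes with 2 spots.

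HOM2 (YDR158W) encodes aspartate semialdehyde dehydrogenase, the step after the kinase. It had −1.31, −2.49 and −1.20 on replicates 1, 2 and 3, so every array lay on the low side and replicate 2 lay farthest out. The mean was −1.66 ± 0.71 (SD, n = 3; limma adjusted p = 0.000417), with a 95% interval of −2.24 to −1.09. Its percentile among all genes was 0.0361 on replicate 2, and 3.50 and 2.58 on replicates 1 and 3.

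The size of the HOM2 value depended on which spot was read. Its first spot had −1.23, −3.40 and −2.11 and its second −1.39, −1.57 and −0.29 on replicates 1, 2 and 3. The spots were close on replicate 1 and far apart on the others, where they differed by 1.83 and 1.82; 95% of genes had gaps up to 1.16 and 1.09 on those arrays. Both spots lay below the median on all arrays, and the call held with the first spot alone (−2.26, adjusted p = 0.00162) and with the second alone (−1.14, adjusted p = 0.0174). The scatter of HOM2 between spots, an SD of 0.90 averaged over arrays, stood at the 99.4th percentile of all genes. Genes of like scatter had a running median of −0.73, and with that trend removed HOM2 had −0.93 (adjusted p = 0.0353).

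HOM6 (YJR139C), the homoserine dehydrogenase gene, completes the path to homoserine. It had −0.05, 0.28 and −0.63 on replicates 1, 2 and 3, with a mean of −0.13 ± 0.46 (SD, n = 3; limma adjusted p = 0.71; 95% interval −0.66 to 0.39). Its spots were close on each array, with a scatter at the 6.86th percentile, so the spread lay between arrays and not between spots. Genes of such small scatter had a running median of 0.61, and relative to it HOM6 passed on the low side (−0.74, adjusted p = 0.0378). Without replicate 3 the mean was 0.11.

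MET2 (YNL277W) encodes homoserine O-acetyltransferase, which commits homoserine to methionine. It had −0.81, −1.11 and −1.0 on replicates 1, 2 and 3, values close to one another and all on the low side. The mean was −0.98 ± 0.15 (SD, n = 3; limma adjusted p = 0.00574), with a 95% interval of −1.46 to −0.49. Each of its spots lay below the median on every array, between −1.42 and −0.68. The print block that held its spots had a median above that of the array, by 0.25 on average, and relative to the block MET2 had −1.23 (adjusted p = 0.00227). Without replicate 3 the calls of both low-side genes were lost, MET2 at −0.96 (adjusted p = 0.0882) and HOM2 at −1.90 (adjusted p = 0.0508); in that fit 0.867% of all genes passed on the low side.

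**Figure D2:**
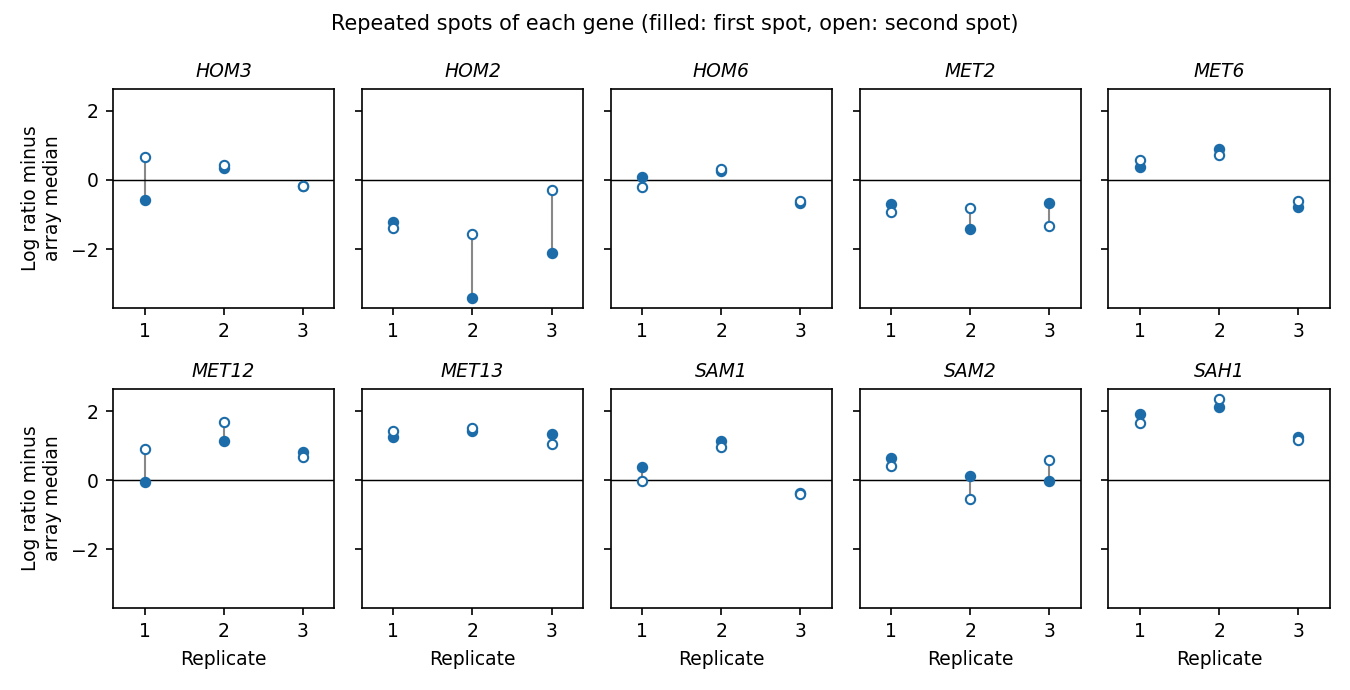
Log ratio minus the array median (vertical axis, log units of unknown base) of the first (filled) and second (open) spot of each gene on replicates 1 to 3 (horizontal axis), with a grey line joining the spots of an array. The HOM2 spots are 1.83 and 1.82 apart on replicates 2 and 3, while those of SAH1, MET13, MET6 and HOM6 lie close together on every array.

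Methionine synthase is encoded by MET6 (YER091C), which moves the methyl group of methyltetrahydrofolate to homocysteine without vitamin B12. MET6 had 0.48, 0.82 and −0.70 on replicates 1, 2 and 3. Replicate 3 lay on the low side and the others on the high side, and the mean was 0.20 ± 0.80 (SD, n = 3; limma adjusted p = 0.62; 95% interval −0.40 to 0.80). Its SD between arrays was the largest of the 10 genes. On each array both of its spots had the same sign and differed by at most 0.20, so the gap between replicate 3 and the others was present in both spots.

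Methylenetetrahydrofolate reductase, which makes the methyl donor of methionine synthase, is encoded by MET13 and MET12. MET13 (YGL125W), the gene of the main isozyme, had 1.33, 1.46 and 1.19 on replicates 1, 2 and 3. These values had the smallest SD of the 10 genes and all lay on the high side, with a mean of 1.33 ± 0.13 (SD, n = 3; limma adjusted p = 0.000644; 95% interval 0.84 to 1.81). Every spot of MET13 lay between 1.05 and 1.51.

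MET12 (YPL023C), the gene of the minor isozyme, had 0.43, 1.40 and 0.74 on replicates 1, 2 and 3. All lay on the high side, but the first spot stood at −0.05 on replicate 1 and the second at 0.92. The mean was 0.86 ± 0.49 (SD, n = 3; limma adjusted p = 0.0186; 95% interval 0.33 to 1.39). The call was lost without replicate 2 (0.59, adjusted p = 0.233), without replicate 3 (0.92, adjusted p = 0.141), with the first spot alone (0.62, adjusted p = 0.156) and relative to the print block (0.54, adjusted p = 0.112), a block whose median lay 0.32 above that of the array. MET13 minus MET12 was 0.90, 0.06 and 0.45 on replicates 1, 2 and 3, with a mean of 0.47 ± 0.42 (SD, n = 3). MET13 was thus the higher on each array, with an exact two-sided sign-flip p of 0.25, the smallest that 3 arrays allow.

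SAM synthetase has a pair of isozymes, encoded by SAM1 (YLR180W) and SAM2 (YDR502C), which join methionine to the adenosine of ATP. SAM1 had 0.18, 1.04 and −0.38 on replicates 1, 2 and 3, and SAM2 had 0.53, −0.21 and 0.29. Both genes had arrays on either side of the median, and the array on which SAM1 lay highest was the one on which SAM2 lay lowest. The means were 0.28 ± 0.72 for SAM1 (limma adjusted p = 0.46; 95% interval −0.30 to 0.86) and 0.20 ± 0.38 for SAM2 (adjusted p = 0.55; 95% interval −0.31 to 0.71; SD, n = 3 each). SAM1 minus SAM2 was −0.35, 1.26 and −0.67, a mean of 0.08 ± 1.03 (SD, n = 3; exact sign-flip p = 1). These genes are close copies and the RNA of one may bind the spots of the other, so their single values are uncertain.

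SAH1 (YER043C) encodes S-adenosylhomocysteine hydrolase, which clears the product of SAM-dependent methylation and returns homocysteine. It had 1.78, 2.23 and 1.22 on replicates 1, 2 and 3. All arrays lay on the high side, with percentiles among all genes of 96.2, 98.6 and 95.2, with the largest mean of the 10 genes, 1.74 ± 0.51 (SD, n = 3; limma adjusted p = 0.00013; 95% interval 1.21 to 2.27). Its spots lay between 1.18 and 2.34 and differed by at most 0.25 on any array. SAH1 and MET13 kept their side and their call without each array in turn, with either spot alone, relative to the print block and with the scatter trend removed. SAH1 had 1.33 (adjusted p = 0.00391) and MET13 had 0.91 (adjusted p = 0.0143) once that trend was removed, the lowest of these values for each gene.

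In order of their means the genes ran from SAH1 through MET13, MET12, SAM1, SAM2, MET6, HOM3, HOM6 and MET2 to HOM2. From SAM1 to HOM3 the differences between neighbours were smaller than their SD over the arrays, so SAM1, SAM2, MET6 and HOM3 have no order. Between the other neighbours the upper gene was the higher on 3 of 3 arrays, by 0.22 (HOM3 over HOM6) to 0.84 (HOM6 over MET2), each with an exact sign-flip p of 0.25, the smallest possible. HOM2 lay lower on each array than HOM3 and HOM6, the genes for the steps on either side of it. Across arrays, 7 of the 10 genes lay highest on replicate 2, as did 38.4% of all genes, and 6 lay lowest on replicate 3, as did 34.4% of all genes.

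The 10 genes differed in the scatter between their spots, a quantity with which the ratio moved over all genes. Ordered by scatter into 10 groups, all genes had a median of 0.60 in the group of the smallest and −0.52 in that of the largest scatter. HOM6 fell in the first group, MET6, MET13, SAM1 and SAH1 in the second, HOM3, MET2 and SAM2 in the seventh, MET12 in the eighth and HOM2 in the tenth. In the second group 32.1% of all genes passed high and 4.69% low, and in the tenth group 1.44% passed high and 35.9% low. MET12 lay on the high side in a group where 4.69% of genes passed on that side.

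The side of a gene was set by the value taken as 0. As deposited, all 10 genes had negative means, from −0.26 for SAH1 to −3.66 for HOM2, as did most genes of the array, 96.9 to 98.9% of which lay below 0 on each array. Another reference was 384 spots not assigned to 1 gene symbol, at 4 fixed positions of the print blocks. They were chosen for medians below each array's lower quartile. Their medians lay 0.86, 1.19 and 0.86 below the gene medians, so most genes lie above them by that choice. Against these spots 8 of the 10 genes were high, where 71.7% of all genes were. Relative to those spots MET2 had −0.01 (adjusted p = 0.99), HOM6 had 0.84 (adjusted p = 0.0103) and HOM2 alone of the 10 was low (−0.69, adjusted p = 0.0291). The order of the genes does not depend on this choice.

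**Figure D3:**
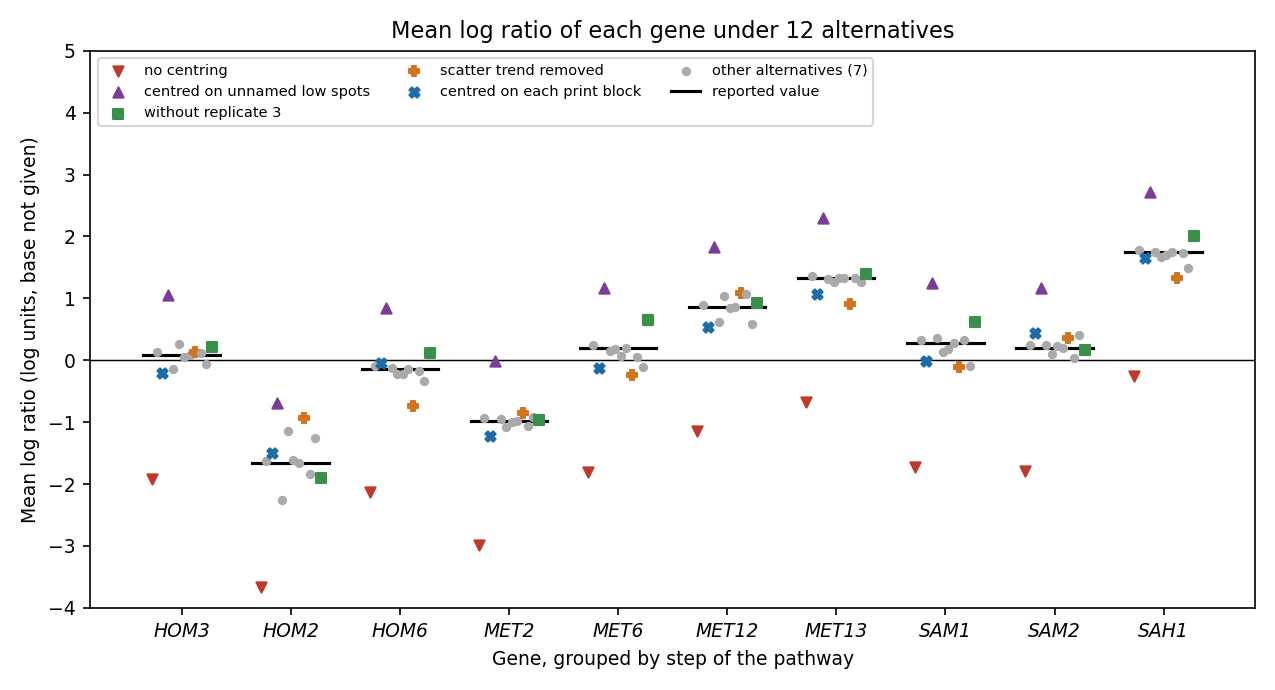
Mean log ratio of each gene (vertical axis, log units of unknown base) as reported (black line) and under 12 alternatives, 5 of them marked by colour and shape and the other 7 in grey. The 10 genes move together with the value taken as 0, as deposited (lowest points) or against the unnamed spots (highest points), while SAH1 and MET13 stay above 0 and HOM2 and MET2 below 0 under the other alternatives.

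Neighbouring steps were described from 9 further gene lists written from textbook knowledge, by counts from the same fit, with 28.5% of all genes past the threshold, 16% on the high and 12.5% on the low side. The threonine branch starts from homoserine, which MET2 also uses, and lay on the opposite side to MET2. All 4 of the branch's measured genes passed on the high side, with a list median of 1.00. Among them THR1 alone acts on homoserine, while ILV1 and GLY1 act on threonine. THR1 averaged 0.97 ± 0.68 (SD, n = 3, limma adjusted p = 0.0143), with its lowest value, 0.21, on replicate 2. THR4, the threonine synthase gene, had 1.38, 1.93 and 1.30 on replicates 1, 2 and 3 (mean 1.54 ± 0.34 SD, n = 3; limma adjusted p = 0.000268), and GLY1, the threonine aldolase gene, had 1.72, 0.63 and 0.71 (mean 1.02 ± 0.61 SD, n = 3; adjusted p = 0.00935).

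The steps that bring sulfur to the products of MET2 lay toward the low side. Of 10 sulfate assimilation genes, 6 passed low and 0 high, with a median of −0.74. MET3, the ATP sulfurylase gene, had −1.74, −1.38 and −2.10 (mean −1.74 ± 0.36 SD, n = 3; limma adjusted p = 8.07e-05), and MET16, the gene of the reductase of activated sulfate, averaged −1.37 ± 0.44 (SD, n = 3; adjusted p = 0.000896). Of 5 genes that make homocysteine or exchange sulfur between it and cysteine, 3 passed low and 0 high, with a median of −0.77. Among them were MET17 (−1.27 ± 0.54 SD, n = 3; adjusted p = 0.00198), which joins sulfide to the product of MET2, and STR3 (−1.15 ± 0.22 SD, n = 3; adjusted p = 0.00212), which makes homocysteine from cystathionine. Of 4 transporter genes for methionine and SAM, 3 passed low and 0 high (median −0.69), with the methionine permease genes MUP1 at −0.76 ± 0.17 and MUP3 at −0.69 ± 0.39 (SD, n = 3 each; adjusted p of 0.0225 and 0.0431).

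A list of 4 genes on or next to the methyl cycle, called further methyl cycle genes below, lay mostly on the high side, as SAH1 did. Of these, 3 passed on that side and 0 passed low (median 1.27). The list had a median scatter between spots of 0.13, against 0.27 over all genes. With the scatter trend removed, the list median was 0.76. ADO1, the adenosine kinase gene, whose enzyme consumes the adenosine released by SAH1, had 1.66, 1.83 and 1.14 (mean 1.54 ± 0.36 SD, n = 3; limma adjusted p = 0.000268). SAM4, which encodes a SAM-homocysteine methyltransferase, had 2.00, 1.25 and 1.27 (mean 1.51 ± 0.42 SD, n = 3; adjusted p = 0.000388). The other high gene, AAH1, averaged 1.02 ± 0.21 (SD, n = 3, limma adjusted p = 0.00451). It encodes adenine deaminase, an enzyme of purine salvage and not a step of the cycle. MHT1, which encodes another homocysteine methyltransferase, averaged −0.57 ± 0.60 (SD, n = 3) and did not pass (limma adjusted p = 0.109).

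The remaining lists went both ways or had shares of calls near those of all genes. Of 16 genes for SAM-dependent methyltransferases, 4 passed high and 0 low (median 0.29), with 9 means above 0 and 7 below. Those farthest out were the mRNA cap methyltransferase gene ABD1 (1.22 ± 0.25) and the sterol methyltransferase gene ERG6 (1.09 ± 0.45; SD, n = 3 each; limma adjusted p of 0.00145 and 0.00451). Of 13 genes that supply folate with carbon groups, 2 passed on the high side, MIS1 (0.97) and SHM1 (0.74), the mitochondrial C1-tetrahydrofolate synthase and serine hydroxymethyltransferase genes, and 0 on the low side (median −0.13). Of 13 methionine salvage and polyamine genes, 4 passed high and 2 low (median 0.21). In that list the mitochondrial aminotransferase gene BAT1 (1.58) and its cytosolic counterpart BAT2 (−0.81) lay on opposite sides. The aminotransferase gene ARO8 (1.48) was the next on the high side and the dioxygenase gene ADI1 (−0.74) the other on the low side. Of 7 regulator genes, 2 passed high and 0 low (median 0.39). GCN4, the activator of amino acid synthesis, had 1.23, 1.23 and 0.93 (mean 1.13 ± 0.17 SD, n = 3; limma adjusted p = 0.00222) and MET32, which encodes a DNA-binding partner of Met4, averaged 0.75 (adjusted p = 0.0353). MET4, the activator of sulfur genes, had a mean of 0.39 ± 0.11 (SD, n = 3) and did not pass (adjusted p = 0.206).

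The counts for these lists depended on single arrays, on the spots and trends used and on the value taken as 0. Without replicate 3, 1 threonine gene, 2 further methyl cycle genes and 2 salvage genes passed high, 1 sulfate assimilation gene passed low, and 0 genes passed in the other 5 lists; in that fit 4.96% of all genes were high and 0.867% low. Without replicate 1, 2 threonine genes, 1 folate gene and 1 regulator gene passed high, and 5 sulfate assimilation genes and 1 transport gene low. The methyltransferases had 6 high and 1 low and the salvage list 3 high and 2 low. Of all genes, 14.9% were high and 11.1% low in that fit. Without replicate 2, 3 threonine genes and 3 methyltransferase genes passed high, 0 folate genes passed, and the salvage list had 3 high and 0 low. On the low side were 5 sulfate assimilation genes, 2 of sulfur exchange, 1 transport gene and 1 further methyl cycle gene. Calls over all genes then stood at 9.71% high and 6.34% low. Relative to the print block, 3 threonine genes and 4 regulator genes passed high, and 4 sulfate assimilation genes and 1 transport gene low. Sulfur exchange had 1 high and 2 low, the methyltransferases 4 high and 1 low, and the salvage list 3 high and 2 low. The shares of all genes were 14.5% high and 12.2% low. With the first spot alone, 3 threonine genes, 3 methyltransferase genes and 1 regulator gene passed high, and 0 folate genes passed. From sulfur exchange and from transport 1 gene each passed low, where 10.9% of all genes were high and 7.46% low. With the second spot alone, 3 threonine genes, 3 methyltransferase genes, 1 folate gene and 1 regulator gene passed high. There 4 sulfate assimilation genes and 2 genes each of sulfur exchange and of transport passed low. Among all genes 11.5% were high and 9.12% low with that spot. The salvage list had 3 high and 1 low with either spot alone and with the scatter trend removed. With that trend removed, 4 threonine genes and 2 further methyl cycle genes passed high. On the low side passed 3 sulfate assimilation genes and 2 genes each of sulfur exchange and of transport. The folate list had 1 high and 2 low, and the methyltransferases had 3 high and 1 low. Over all genes 11.2% were high and 8.79% low without the trend. As deposited every list had a negative median, −1.0 for the threonine branch and −2.74 for sulfate assimilation. Against the unnamed spots every list had a positive one, 1.97 and 0.23 for those lists.

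**Figure D4:**
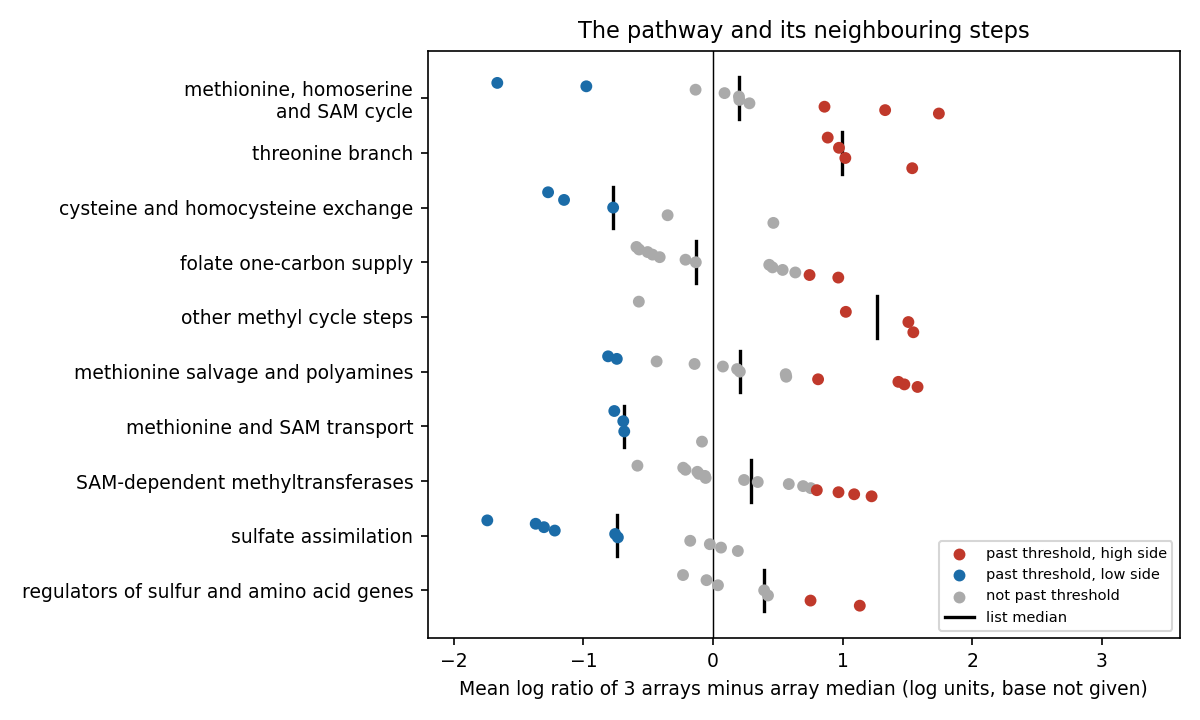
Mean log ratio over 3 arrays minus the array median (horizontal axis, log units of unknown base) of every measured gene in the pathway and in 9 lists of neighbouring steps, coloured by whether and on which side it passed an adjusted p of 0.05, with the list median as a black bar. The threonine branch and the further methyl cycle genes lie mostly on the high side (medians 1.00 and 1.27), and sulfate assimilation, sulfur exchange and transport mostly on the low side (−0.74, −0.77 and −0.69).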

How the data were processed

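The deposited values are log ratios, treated here as log2, 1 per spot and array for 13056 spots; the sources used here state neither their base and direction nor the background correction and normalization of the authors. Spots were named through the platform annotation, with 0 columns left out. Of the spots, 11138 had 1 gene symbol, and the other 1918, with no symbol or more than 1, were left unnamed. Locus names came from RefSeq, assembly R64. A gene's spots were averaged, the median over 5539 genes was subtracted from each array, and the mean of 3 arrays was tested against 0 with limma 3.58.1 in R 4.3.3 (lmFit with an intercept, eBayes, two-sided, 95% intervals), with Benjamini-Hochberg adjustment over all genes and a threshold of 0.05. The prior variance that limma estimates over all genes had 13.3 degrees of freedom. It thus weighs more in each p-value than the spread of a gene's own 3 arrays. The fit was tested on simulated data. Spot intensities were not analysed here, and precision is limited by the 3 arrays. The unnamed low spots are block positions that held no named spot in any of 48 blocks of 272 spots, with medians below each array's lower quartile. The scatter trend is a running median over 501 genes.

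The members, lists, tests and alternatives were chosen with earlier results of these data known. The text names all members, YAP1, GCN4, MET4 and up to 2 called genes on each side of each list, those with the largest absolute means. It also names THR1, ILV1, AAH1 and MHT1, the remaining genes of their lists. Promoter motifs were not analysed here.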

Additional observations from a re-analysis of the deposited data

How the results depend on the processing

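Centring on all spots, the second spot alone, equal scales of the arrays, robust moderation and leaving out replicate 1 changed no side or call of the 10 genes. With values as deposited, calls numbered 5260, with 2 high and 5258 low, with 9 of the 10 genes called, 0 high and 9 low. HOM3 then had −1.91, MET6 −1.80, MET12 −1.14, MET13 −0.67, SAM1 −1.72, SAM2 −1.80 and SAH1 −0.26, on the other side from the reported value because nothing was subtracted. Against the unnamed low spots 3984 genes were called, 3973 high and 11 low, with 9 of the 10 genes called, 8 high and 1 low, and HOM6 had 0.84. Relative to the print block, HOM3 had −0.20, MET6 −0.12 and SAM1 −0.0085. With the first spot alone 1014 genes were called, 413 of them low, and HOM3 had −0.15. With the scatter trend removed, MET6 had −0.23 and SAM1 −0.10. Over the fits that leave out an array, 323 to 1443 genes were called (275 to 826 high, 48 to 617 low), and 2 to 5 of the 10 genes (2 to 3 high, 0 to 2 low), the lowest counts without replicate 3. HOM3 ran from −0.062 to 0.22, MET6 from −0.11 to 0.65, SAM1 from −0.10 to 0.61 and HOM6 from −0.34 to 0.11. Turning the sign exchanges the sides (2 of the 10 high, 3 low). Apart from the changes of the value taken as 0, the cause was not tested. The fits without an array were of equal size. Each log ratio already pairs mutant with wild type on its array, and with 1 group of arrays there is no replicate number shared between groups to enter as a block.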
